A study of Mus musculus with 32 samples.

Results

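Gene expression was compared between KO-labelled and wild-type (WT) mouse CD4+ T cells that had not been stimulated. The comparison takes the 4 libraries labelled as unstimulated and KO and the 4 labelled as unstimulated and WT, 8 of the 32 libraries of the series. Genes of T cells were followed apart from genes of macrophages and B cells, because the marker levels of those cells vary between the libraries. The study sequenced polyadenylated RNA of CD4+ cells of C57BL/6J mice, taken from the spleen and the axillary and inguinal lymph nodes. It crossed Nr4a1 genotype with 4 conditions, which were unstimulated, stimulated through CD3 and CD28 for 12 h, and stimulated with either XCT790 or CompA. The KO-labelled unstimulated group carries the genotype label Nur77KO and the agent label control, and the WT unstimulated group carries the genotype label WT and the same agent label. The labels of these groups name no other allele or agent, and that they were unstimulated is taken from their titles and the agent label. The sources used here do not give the making of the Nr4a1 allele, the substrain of each group or the animals' age, nor do they say if each library had its own animal. The p-values below therefore measure the spread between these libraries, which may be technical.

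Nr4a1 encodes Nur77, a nuclear receptor that binds DNA and that T cells make quickly after their antigen receptor is engaged. Nr4a2 (Nurr1) and Nr4a3 (Nor1) encode close relatives that bind the same DNA element. In T cells the family is known for its part in the deletion of self-reactive thymocytes, in the generation and upkeep of regulatory T cells, and in tolerance and exhaustion of T cells that meet antigen for long. A resting CD4+ population from spleen and lymph node is a mixture of naive cells, memory cells, regulatory T cells that express Foxp3, and follicular helper T cells that express Bcl6 and Cxcr5 and help B cells. In bulk RNA, fewer cells of a type and less RNA per cell cannot be told apart.

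Of 24302 genes listed, 11971 passed the filter on low counts, and 2294 of these differed between the genotypes at an adjusted p under 0.05 (edgeR quasi-likelihood test, Benjamini-Hochberg). Higher in KO-labelled cells were 1191 genes, 9.95% of those tested, and lower were 1103 genes, 9.21%. The median log2 fold change of all tested genes was -0.01. Of all calls 51.9% were higher, against 73.6% with libraries scaled by their totals and 31.6% when scaled on T cell transcripts. The test called 489 genes higher and 198 lower without KO-labelled replicate 3, 533 and 365 without WT replicate 3, 757 and 727 without KO-labelled replicate 4, and 1866 and 1798 without WT replicate 2. Lower calls were also fewer without KO-labelled replicate 1 or 2, at 463 and 671. No gene called with all libraries and again in one of these omissions changed direction. The libraries of the groups did not overlap for 3562 genes, 29.8% of those tested. Levels below are CPM, the counts of a gene relative to all gene counts of its library, with library totals scaled by TMM, a factor that removes the effect of a few abundant genes. Values of 4 libraries stand in the order of replicates 1 to 4, fold changes are those of the fit, and errors are SD with n = 4 in each group unless marked SE.

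The libraries were T cell libraries with RNA of other cells in them. Gene counts per library were 18640919 to 21210758 in KO-labelled and 16938473 to 21596749 in WT libraries. The 20 T cell identity genes, among them the CD3 chains, Cd4 and Lck, together stood at 10149.7, 9632, 9988 and 10163 CPM in KO-labelled libraries, against 10230.4, 9405, 10032 and 9877 CPM in WT libraries, and the groups overlapped. The 34 macrophage genes summed to 2637, 4637, 3641 and 6304 CPM in KO-labelled libraries, against 7514, 10446, 6636 and 8884 CPM in WT libraries. Every WT library lay above every KO-labelled library (exact two-sided permutation p = 0.0286, the smallest that 4 against 4 libraries allow, and 0.121 adjusted over 17 lists). The 18 B cell genes summed to 226, 1232, 320.2 and 291 CPM in KO-labelled libraries, against 413, 343, 385 and 363 CPM in WT libraries. KO-labelled replicate 2 was far above every other library, and the other KO-labelled libraries lay below every WT library (exact p = 1). The plot of summed marker levels shows that WT replicate 1 also stood apart, with the highest erythroid and ribosomal protein sums. Without these 2 libraries 1103 genes were called higher and 827 lower.

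**Figure D1:**
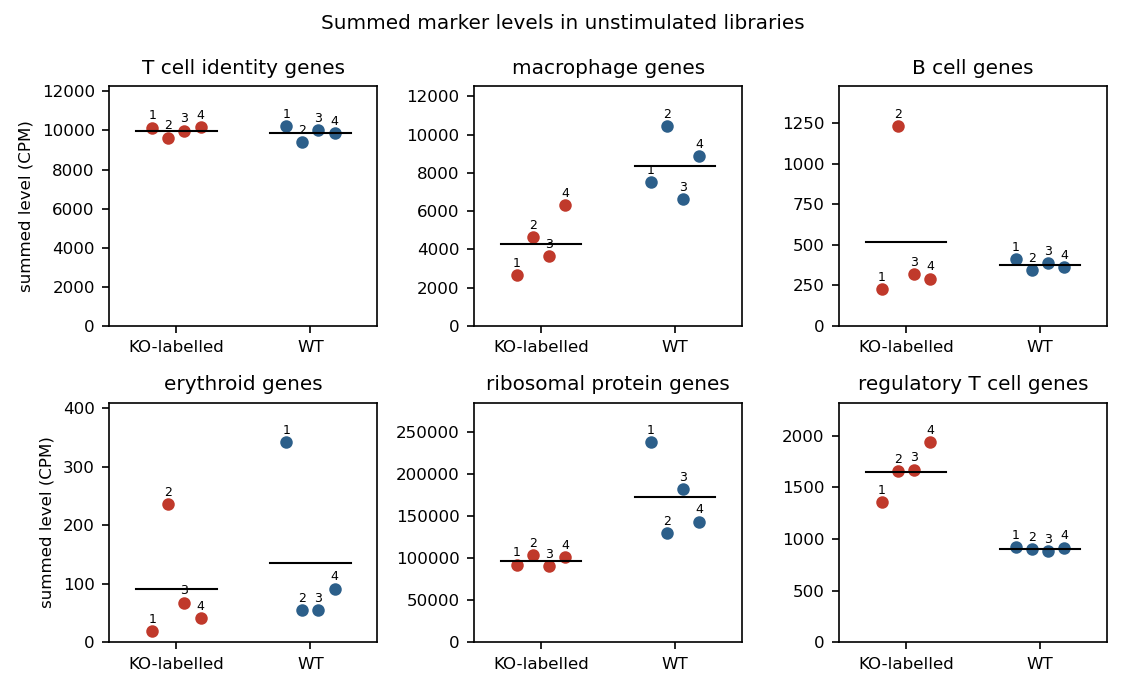
Summed level (CPM) of 6 gene lists in the 4 KO-labelled and 4 WT unstimulated libraries, numbered by replicate, with a bar at the group mean. Macrophage sums were 2637 to 6304 CPM in KO-labelled and 6636 to 10446 CPM in WT libraries, while T cell identity sums overlapped.

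The targeted gene and its relatives come first because they check the genotype labels. Nr4a1 (chromosome 15, 101253902 to 101274795, GRCm38) stood at 98.1, 108, 101 and 127 CPM in KO-labelled cells, against 47.5, 107, 72.9 and 87.7 CPM in WT cells. The groups overlapped, and the KO-labelled level was 1.37-fold the WT level (adjusted p = 0.136). A lower Nr4a1 transcript level was thus not seen in the libraries labelled KO. Counts over a whole gene do not show whether a transcript encodes a complete protein, and every direction below rests on the genotype labels. Nr4a2 (chromosome 2, 57106830 to 57124003) stood at 5.69, 3.91, 5.19 and 5.54 CPM in KO-labelled cells, against 0.535, 1.53, 0.972 and 1.44 CPM in WT cells, and Nr4a3 (chromosome 4, 48045078 to 48086447) at 14.2, 14.8, 14.8 and 16.5 CPM in KO-labelled cells, against 4.22, 8.11, 6.62 and 7.49 CPM in WT cells. For both relatives every KO-labelled library lay above every WT library. The differences were 4.45-fold for Nr4a2 (log2 fold change 2.15, SE 0.29, adjusted p = 0.00284) and 2.27-fold for Nr4a3 (SE 0.19 on the log2 scale, adjusted p = 0.00524). Esrra, which encodes the receptor ERR-alpha that XCT790 targets, averaged 40.9 ± 4.54 CPM in KO-labelled cells and 46.3 ± 6.26 CPM in WT cells (adjusted p = 0.275).

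Because Nr4a2 and Nr4a3 were both higher and Nr4a1 was not called, their RefSeq promoters (GRCm38.p6, 250 bases before to 50 after the transcript start) are shown side by side. They are chr15:101266596-101266895 on the plus strand for Nr4a1, chr2:57123954-57124253 on the minus strand for Nr4a2 and chr4:48045055-48045354 on the plus strand for Nr4a3. Capitals mark TGACG and its reverse complement CGTCA, the core that the cAMP response element binding protein CREB recognises.
Nr4a1: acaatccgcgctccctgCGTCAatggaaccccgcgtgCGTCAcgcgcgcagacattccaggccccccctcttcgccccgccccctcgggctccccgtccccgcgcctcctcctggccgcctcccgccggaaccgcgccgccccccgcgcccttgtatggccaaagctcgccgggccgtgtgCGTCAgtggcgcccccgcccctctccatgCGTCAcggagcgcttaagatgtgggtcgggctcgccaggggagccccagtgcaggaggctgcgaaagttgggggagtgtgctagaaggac
Nr4a2: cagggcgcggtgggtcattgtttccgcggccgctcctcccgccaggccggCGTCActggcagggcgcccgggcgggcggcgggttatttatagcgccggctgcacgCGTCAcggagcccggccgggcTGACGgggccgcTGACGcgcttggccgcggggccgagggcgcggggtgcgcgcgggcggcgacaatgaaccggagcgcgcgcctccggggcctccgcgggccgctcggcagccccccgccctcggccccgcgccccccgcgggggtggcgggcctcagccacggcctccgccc
Nr4a3: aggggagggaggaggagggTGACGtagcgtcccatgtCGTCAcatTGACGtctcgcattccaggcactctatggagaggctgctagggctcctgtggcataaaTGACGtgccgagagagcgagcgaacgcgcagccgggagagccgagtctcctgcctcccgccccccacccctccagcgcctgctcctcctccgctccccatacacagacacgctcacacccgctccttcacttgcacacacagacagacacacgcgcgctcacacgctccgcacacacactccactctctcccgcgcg
Each promoter holds 4 such cores, counted on both strands, where 20.8% of 32851 mouse promoters of the same length hold at least 1. The full palindrome TGACGTCA, which contains the core on both strands, was in none of the 3 and in 1.79% of all promoters. The element AAAGGTCA that NR4A receptors bind was also in none of the 3, and in 1.51% of all promoters. These matches describe the letters only, and they do not separate the 2 genes that differed from Nr4a1.

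Genes of regulatory T cells, the Foxp3-expressing lineage that restrains other T cells, were higher in KO-labelled cells. Of 17 listed genes 16 were tested, 11 were higher and none was lower (against 9.95% of all genes higher), with a median log2 fold change of 0.88. This list and those below were chosen with earlier results of these data known. Their counts describe the lists and are no independent result. Foxp3, the lineage-defining transcription factor, stood at 123, 141, 154 and 159 CPM in KO-labelled cells, against 53.1, 85.7, 69.7 and 77.8 CPM in WT cells. Ikzf2, which encodes the factor Helios, stood at 138, 159, 186 and 193 CPM in KO-labelled cells, against 37, 71.2, 47.9 and 75.8 CPM in WT cells. Nrp1, a surface receptor of thymus-derived regulatory T cells, stood at 144, 170.0, 188 and 215 CPM in KO-labelled cells, against 30.2, 68.1, 43.7 and 66.2 CPM in WT cells. In all 3 genes the groups did not overlap, and the differences were 2.02-fold, 2.91-fold and 3.44-fold (adjusted p = 0.00396, 0.00373 and 0.00305). Ctla4, an inhibitory receptor that regulatory T cells carry constitutively, averaged 102 ± 21.4 CPM in KO-labelled cells and 47.9 ± 6.4 CPM in WT cells (2.13-fold, adjusted p = 0.00373). Itgae, the integrin chain CD103, was 2.54-fold higher (adjusted p = 0.00562). Areg, a growth factor that tissue regulatory T cells make, was the member with the largest fold, 6.14-fold, at 3.46 ± 1.51 CPM in KO-labelled cells and 0.562 ± 0.258 CPM in WT cells (adjusted p = 0.00636). The number of higher members was 10 to 13 when single libraries were left out.

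Genes of follicular helper T cells were higher as well, in 11 of 14 tested members (against 9.95% of all genes) with none lower. The median log2 fold change was 1.24. Il21, the cytokine with which these cells act on B cells, stood at 29.9, 33.9, 43.5 and 65.2 CPM in KO-labelled cells, against 3.15, 3.01, 2.98 and 10 CPM in WT cells. The highest WT value, in replicate 4, was still below the lowest KO-labelled value, and the difference was 8.82-fold (adjusted p = 0.00301). Pdcd1, the inhibitory receptor PD-1, stood at 69.3, 107, 101 and 158 CPM in KO-labelled cells, against 25.6, 22.5, 22 and 44.2 CPM in WT cells, again with WT replicate 4 above the other WT libraries and with no overlap. Cxcr5, the chemokine receptor that brings cells into B cell follicles, averaged 95.1 ± 26.1 CPM in KO-labelled cells and 37.8 ± 7.62 CPM in WT cells (2.51-fold, adjusted p = 0.00528). Bcl6, the lineage's transcription factor, averaged 45.7 ± 8.51 CPM in KO-labelled cells and 21.8 ± 5.13 CPM in WT cells (2.1-fold, adjusted p = 0.00856). The costimulatory receptor gene Icos was 1.96-fold higher, the transcription factor gene Tox2 4.31-fold and the TNF family ligand gene Tnfsf8 (CD30 ligand) 2.7-fold (adjusted p = 0.00234, 0.00713 and 0.00231). Sostdc1, a secreted antagonist of bone morphogenetic protein and Wnt signals, stood at 45.3, 51.1, 61.2 and 119 CPM in KO-labelled cells, against 4.08, 1.08, 2.61 and 13.8 CPM in WT cells. WT replicate 4 was the highest of its group there too, and the difference was 12.5-fold (adjusted p = 0.00912). B cell genes summed to 291 CPM in KO-labelled replicate 4, which had the highest Il21, Pdcd1 and Sostdc1 levels, and to 1232 CPM in KO-labelled replicate 2, and their part in these differences was not tested.

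Inhibitory receptors and genes of anergy, a state in which T cells respond poorly to antigen, were higher too. That was so in 12 of 19 tested members, against 9.95% of all genes, with none lower and a median of 0.85. Of the listed genes 4 also stand in the follicular helper list, and Ctla4 stands in the regulatory list. Lag3, a receptor that binds MHC class II, stood at 104, 173, 153 and 221 CPM in KO-labelled cells, against 29.2, 29.8, 25.5 and 41.2 CPM in WT cells. Tigit, a receptor for nectin family ligands, stood at 50.9, 71.3, 90.1 and 107 CPM in KO-labelled cells, against 18.3, 17.3, 19.5 and 27.3 CPM in WT cells. Neither gene had overlapping groups, and the differences were 5.17-fold and 3.87-fold (adjusted p = 0.00121 and 0.00224). Nt5e, the ectoenzyme CD73 that makes adenosine, averaged 149 ± 18.9 CPM in KO-labelled cells and 53.7 ± 13.2 CPM in WT cells (2.77-fold, adjusted p = 0.00231). Egr2, a transcription factor that antigen receptor signals induce and that anergy requires, averaged 36.7 ± 5.33 CPM in KO-labelled cells and 14.5 ± 3.3 CPM in WT cells (2.52-fold, adjusted p = 0.00269).

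**Figure D2:**
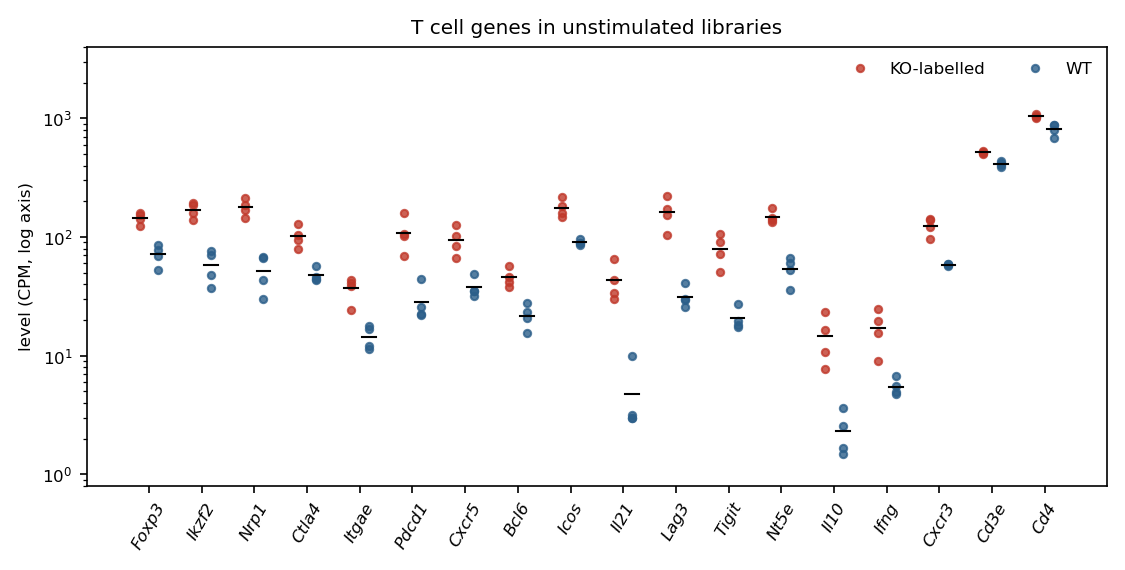
Level (CPM, log axis) of 18 T cell genes in each KO-labelled and each WT unstimulated library, with a bar at the group mean. Il21 stood at 29.9 to 65.2 CPM in KO-labelled and 2.98 to 10.0 CPM in WT libraries. Cd4 and Cd3e differed less, and their groups did not overlap either.

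Among effector cytokines and chemokines, 15 of 22 listed genes passed the filter, so the count covers the detected ones only. Of these 9 were higher, against 9.95% of all tested genes, none was lower and the median was 0.92. With the replicate block 6 were higher and the median was 0.47. Il10, which dampens inflammation, stood at 10.6, 7.66, 16.3 and 23.5 CPM in KO-labelled cells, against 1.67, 3.63, 2.55 and 1.49 CPM in WT cells (6.22-fold, adjusted p = 0.00446). Ifng, the signature cytokine of type 1 helper cells, stood at 15.5, 8.93, 24.9 and 19.4 CPM in KO-labelled cells, against 5.55, 6.69, 4.74 and 4.93 CPM in WT cells (3.14-fold, adjusted p = 0.00786). Both genes had all KO-labelled libraries above all WT libraries, with KO-labelled replicate 2 the lowest of its group. The chemokine gene Ccl4 averaged 6.41 ± 1.28 CPM in KO-labelled cells and 1.83 ± 0.168 CPM in WT cells (3.51-fold, adjusted p = 0.00143), Tnf 12.1 ± 0.727 CPM in KO-labelled cells and 7.01 ± 0.738 CPM in WT cells (1.73-fold, adjusted p = 0.00471), and Lif, a cytokine of the interleukin-6 family, 4.88 ± 1.49 CPM in KO-labelled cells and 1.8 ± 0.31 CPM in WT cells (2.69-fold, adjusted p = 0.00902). With the run of library numbers as a replicate block the Ccl4 and Tnf calls were lost (adjusted p = 0.125 and 0.0705).

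In the list of activated and memory T cells 10 of 24 tested genes were higher and 1 was lower (median 0.56). The shares of all tested genes were 9.95% and 9.21%. Cxcr3, a chemokine receptor of type 1 helper and memory cells, stood at 96.5, 122, 139 and 141 CPM in KO-labelled cells, against 59.2, 58.4, 58.8 and 56.4 CPM in WT cells, without overlap (2.15-fold, adjusted p = 0.00166). Itgb1, the beta-1 integrin chain, averaged 705 ± 105 CPM in KO-labelled cells and 305 ± 46.8 CPM in WT cells (2.31-fold, adjusted p = 0.00205). The transcription factor genes Eomes and Tbx21 (T-bet), which direct interferon-producing and memory fates, were 2.33-fold and 1.95-fold higher (adjusted p = 0.00721 and 0.0125). Ahnak, which encodes a very large scaffold protein, was 3.6-fold higher (adjusted p = 0.00901). The lower member was Cxcr6, a chemokine receptor of natural killer T and tissue-resident cells, named after its values were seen. It averaged 22.4 ± 9.6 CPM in KO-labelled cells and 65.5 ± 23.6 CPM in WT cells (2.93-fold lower, adjusted p = 0.0175, and 0.0534 without WT replicate 3).

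Among 22 immediate early and antigen-receptor-induced genes 9 were higher and 1 was lower (median 0.52), where 9.95% and 9.21% of all tested genes were. The summed level was 9042, 4883, 8750 and 8569 CPM in KO-labelled libraries, against 6615, 7045, 5157 and 5142 CPM in WT libraries. KO-labelled replicate 2 lay below every WT library (exact two-sided permutation p = 0.2). Spry1, a feedback inhibitor of receptor signalling, averaged 51.1 ± 17.1 CPM in KO-labelled cells and 14.9 ± 2.63 CPM in WT cells (3.42-fold, adjusted p = 0.00315). Nfatc1, a calcium-responsive transcription factor, averaged 377 ± 24.9 CPM in KO-labelled cells and 175 ± 34 CPM in WT cells (2.15-fold, adjusted p = 0.00238). Irf4, a transcription factor that scales with the strength of the receptor signal, averaged 52.8 ± 9.33 CPM in KO-labelled cells and 28.3 ± 4.49 CPM in WT cells (1.86-fold, adjusted p = 0.00856).

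Of 22 mitosis genes 17 were higher, against 9.95% of all tested genes, none was lower and the median was 1.24. The summed level was 305, 157, 408 and 358 CPM in KO-labelled libraries, against 101, 171, 106 and 129 CPM in WT libraries. KO-labelled replicate 2 lay inside the WT range. Bub1, a kinase of the spindle checkpoint, stood at 5.38, 2.74, 7.39 and 7.35 CPM in KO-labelled cells, against 1.47, 2.16, 1.46 and 1.3 CPM in WT cells (3.57-fold, adjusted p = 0.00894). Top2a, which untangles replicated chromosomes, stood at 75.2, 28.2, 97.5 and 85.1 CPM in KO-labelled cells, against 12.8, 34.3, 16 and 22.8 CPM in WT cells, and here KO-labelled replicate 2 fell between WT libraries (3.32-fold, adjusted p = 0.0204, but 0.065 to 0.0662 without KO-labelled replicate 3 or WT replicate 3). The call was made for 2 mitosis genes without KO-labelled replicate 3, for 3 without WT replicate 3, for 5 and 7 without KO-labelled replicates 4 and 1, for 9 without WT replicate 4 and for 20 without KO-labelled replicate 2, while the medians stayed between 1.05 and 1.47. It was made for 20 without both WT replicate 1 and KO-labelled replicate 2. Of 30 DNA replication genes 8 were higher, against 9.95% of all tested genes, and none was lower (median 0.31). Uhrf1, which couples replication to DNA methylation, averaged 23.1 ± 5.46 CPM in KO-labelled cells and 8.77 ± 1.6 CPM in WT cells (2.62-fold, adjusted p = 0.00377). Mcm6, a subunit of the replicative helicase, averaged 189 ± 31.8 CPM in KO-labelled cells and 128 ± 4.37 CPM in WT cells (1.48-fold, adjusted p = 0.0151, and 0.0552 without KO-labelled replicate 3).

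The genes that identify T cells moved little and in both directions. Of 20 genes 5 were higher and 2 lower, where 9.95% and 9.21% of all tested genes were. The median was 0.02, and the called differences were at most 1.62-fold. The groups did not overlap for 10 of the 20 genes, against 29.8% of all tested genes. Cd4 stood at 1022, 1013, 1039 and 1085 CPM in KO-labelled cells, against 681, 885, 798 and 883 CPM in WT cells (1.28-fold, adjusted p = 0.0381). Cd3e, a chain of the antigen receptor complex, stood at 509, 519.9, 503 and 535 CPM in KO-labelled cells, against 401, 418, 391 and 440.1 CPM in WT cells (1.25-fold, adjusted p = 0.0213). The kinase gene Zap70 and the receptor genes Cd5 and Cd6 were 1.24-fold, 1.3-fold and 1.31-fold higher (adjusted p = 0.046, 0.0234 and 0.0272). Each of these 5 calls was lost when certain single libraries were left out. That was so for Cd4 without KO-labelled replicates 1, 2, 3 or 4 or WT replicate 3 (adjusted p = 0.0651 to 0.107), Cd3e without KO-labelled replicates 3 or 4 or WT replicate 3 (0.0526 to 0.0778), Cd5 without KO-labelled replicates 1 or 3 or WT replicate 3 (0.0562 to 0.0832), Cd6 without KO-labelled replicates 1, 3 or 4 or WT replicate 3 (0.0536 to 0.0948) and Zap70 without KO-labelled replicates 1, 2, 3 or 4 or WT replicates 2, 3 or 4 (0.0573 to 0.112). Trat1, an adaptor of the antigen receptor, was lower at 60, 43.6, 57.8 and 51.2 CPM in KO-labelled cells, against 80.4, 83.4, 99.5 and 80.5 CPM in WT cells (1.62-fold lower, adjusted p = 0.00824). Thy1, a surface glycoprotein of all T cells, averaged 716 ± 62.7 CPM in KO-labelled cells and 900.0 ± 38.8 CPM in WT cells (1.26-fold lower, adjusted p = 0.0336, but 0.0562 to 0.107 without KO-labelled replicates 2, 3 or 4 or WT replicates 3 or 4).

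Of 22 genes of naive and quiescent T cells none was higher and 3 were lower, with a median of -0.20. Over all tested genes 9.21% were lower, and a count of 3 is too near that share to be read as a result about the list. Ccr9, a homing receptor for the gut, averaged 11.2 ± 2.89 CPM in KO-labelled cells and 23.8 ± 5.94 CPM in WT cells (2.14-fold lower, adjusted p = 0.0157, and 0.056 without KO-labelled replicate 3). Ccr7, which guides T cells into lymph nodes, was 1.34-fold lower (adjusted p = 0.0378, but 0.0504 to 0.11 without KO-labelled replicates 1, 2, 3 or 4 or WT replicates 1, 3 or 4). Igfbp4, a binding protein of insulin-like growth factors, was 1.48-fold lower (adjusted p = 0.0453, but 0.0661 to 0.105 without KO-labelled replicates 1, 2, 3 or 4 or WT replicates 3 or 4).

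**Figure D3:**
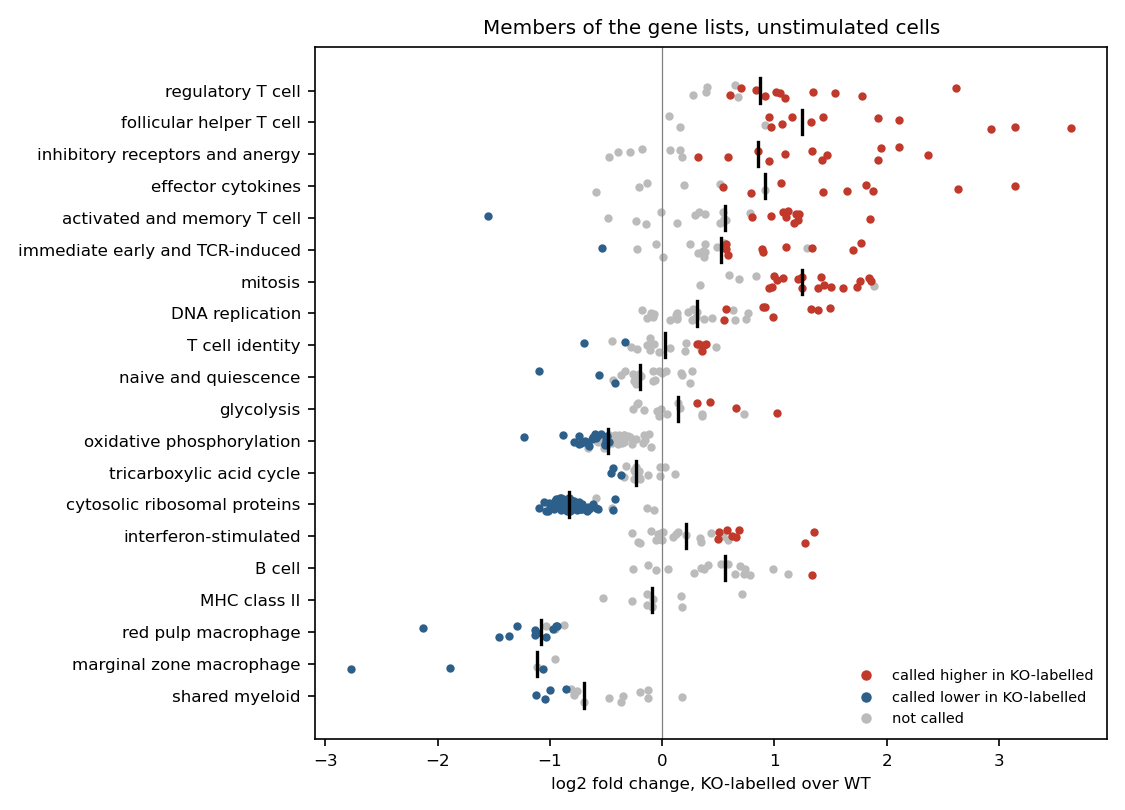
Log2 fold change, KO-labelled over WT, of every tested member of 20 gene lists in unstimulated cells, with the list median as a bar and called genes in colour. Regulatory and follicular helper T cell genes lie right of 0 (medians 0.88 and 1.24), and ribosomal protein and red pulp macrophage genes lie left of it (medians -0.83 and -1.08).

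Of 74 oxidative phosphorylation genes, which encode the respiratory chain and ATP synthase, none was higher and 20 were lower, with a median of -0.48, and all 74 fold changes lay below 0. By complex, 7 of 35 genes of complex I, 1 of 4 of complex II, 2 of 9 of complex III, 5 of 11 of complex IV and 5 of 15 of ATP synthase were lower. Over all tested genes 9.21% were lower. In the shortest of 5 classes by transcript length, where these genes mostly fall, 17.3% were lower, with a median of -0.28. The counts of complexes I, II and III are too near that share to be read as results about them. Cox7a2l, which helps join respiratory complexes, stood at 215, 236, 217 and 240.0 CPM in KO-labelled cells, against 715, 408, 569 and 439 CPM in WT cells, without overlap (2.35-fold lower, adjusted p = 0.00285). Ndufa6, a complex I subunit, averaged 101 ± 11 CPM in KO-labelled cells and 186 ± 52.4 CPM in WT cells (1.84-fold lower, adjusted p = 0.0152, and 0.0559 without KO-labelled replicate 3). Of 17 genes of the tricarboxylic acid cycle 3 were lower and none higher (median -0.23), few calls beside the 9.21% of all tested genes that were lower. Suclg2, a subunit of succinyl-CoA ligase, averaged 33.1 ± 2.25 CPM in KO-labelled cells and 45.5 ± 1.41 CPM in WT cells (1.37-fold lower, adjusted p = 0.00933). The 10 tested regulators of mitochondrial biogenesis had a median of -0.04. Of 17 glycolysis genes 4 were higher, against 9.95% of all tested genes, and none was lower (median 0.14). Their fold changes lay above 0 for 10 genes and below 0 for 7.

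The count of lower respiratory genes depended on single libraries. It was 1 without KO-labelled replicate 3, 2 without KO-labelled replicate 1 or WT replicate 3, 3 without KO-labelled replicate 2, 6 without KO-labelled replicate 4 and 59 without WT replicate 2, and 17 and 23 without WT replicates 1 and 4. It was 13 without both WT replicate 1 and KO-labelled replicate 2, 10 when libraries were scaled by their totals, 47 by DESeq2 and 69 in the fit of all 32 libraries. The list median stayed between -0.58 and -0.31 when single libraries were left out.

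Cytosolic ribosomal protein genes, with a median of -0.83, were lower in 73 of 78 tested members (against 9.21% of all genes) and higher in none. They took 9.79, 10.9, 9.45 and 10.5% of gene counts in KO-labelled libraries, against 20.9, 12.9, 17.2 and 14.3% in WT libraries, without overlap and with WT replicate 1 the highest. Rps16 stood at 1372, 1633, 1319 and 1613 CPM in KO-labelled cells, against 4143, 2287, 3145 and 2585 CPM in WT cells (2.05-fold lower, adjusted p = 0.00821). Only 15 members were called without KO-labelled replicate 3 and 37 without WT replicate 3, with medians of -0.79 and -0.81. These genes make short transcripts, and lower genes were more frequent among short than among long transcripts. Tested genes were ranked by the length of their longest transcript and divided into 5 classes of equal size. In the shortest class, up to 1950 nucleotides, 17.3% of genes were lower and 4.66% higher, with a median log2 fold change of -0.28. In the longest class, from 5195 nucleotides, 3.36% were lower and 13.6% higher, with a median of 0.29. The shortest class took 23.1, 25.5, 23.1 and 25.3% of gene counts in KO-labelled libraries, against 36.8, 26.6, 31.8 and 28.4% in WT libraries. With an offset that takes the length trend out of each library, an alternative added after seeing the data, the median moved to -0.15 for oxidative phosphorylation and to -0.47 for ribosomal proteins, while it was 0.93 for regulatory and 1.38 for follicular helper genes. Whether the length trend arose in the cells or in the preparation of the libraries was not tested.

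**Figure D4:**
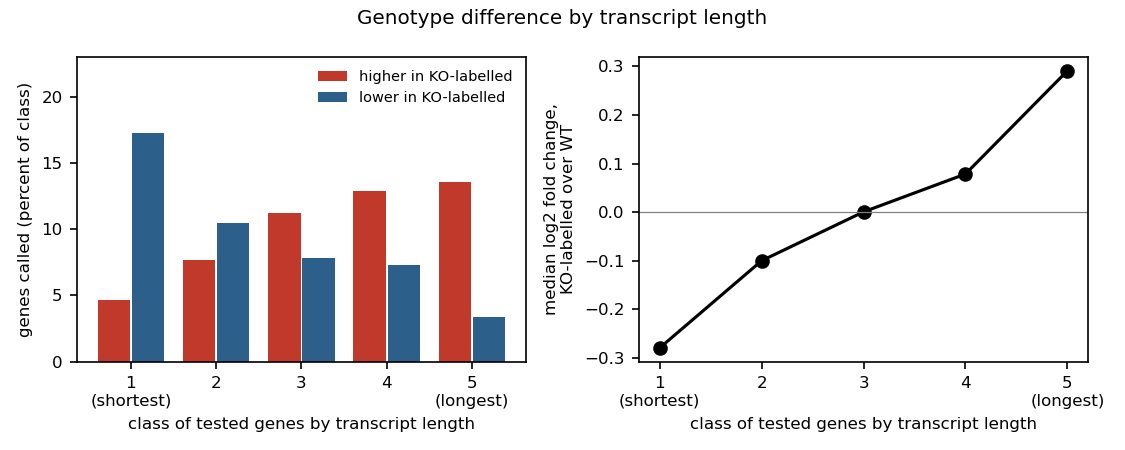
Percent of tested genes called higher or lower in KO-labelled cells (left, bars) and median log2 fold change, KO-labelled over WT (right), in 5 classes of genes ranked by transcript length. Lower genes made up 17.3% of the shortest and 3.36% of the longest class.

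Of 27 interferon-stimulated genes 8 were higher, against 9.95% of all tested genes, and none was lower (median 0.21). Fold changes lay above 0 for 18 of them and below 0 for 9. Mx1, an antiviral GTPase, averaged 4.1 ± 0.82 CPM in KO-labelled cells and 1.59 ± 0.597 CPM in WT cells (2.55-fold, adjusted p = 0.0155).

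Macrophage genes were lower in KO-labelled libraries, with 18 of 34 members called lower, against 9.21% of all tested genes. None was higher, and the median was -0.96. Without both WT replicate 1 and KO-labelled replicate 2, 12 were called lower. Among 14 genes of red pulp macrophages, the splenic cells that clear old erythrocytes and recycle iron, 11 were lower. Slc40a1, the iron exporter ferroportin, stood at 239, 479, 378 and 724 CPM in KO-labelled cells, against 1332, 1393, 984 and 1288 CPM in WT cells (2.74-fold lower, adjusted p = 0.0128). C1qa, a chain of the complement component C1q, stood at 102, 195, 123 and 239.7 CPM in KO-labelled cells, against 433, 445, 313 and 424 CPM in WT cells (2.45-fold lower, adjusted p = 0.0126). For both genes KO-labelled replicate 4 was the highest of its group and still below every WT library. Of 5 marginal zone macrophage genes 3 were lower. Cd209b, the C-type lectin SIGN-R1 of those cells, stood at 3.69, 2.84, 2.38 and 4.98 CPM in KO-labelled cells, against 46.4, 7.37, 11.2 and 29.9 CPM in WT cells, with WT replicate 1 far above WT replicate 2 (6.81-fold lower, adjusted p = 0.0131). Emr1, which encodes the macrophage antigen F4/80, averaged 131 ± 58.2 CPM in KO-labelled cells and 252 ± 52.9 CPM in WT cells (adjusted p = 0.0478, but 0.0511 to 0.13 without KO-labelled replicates 1, 2 or 3 or WT replicates 1, 2, 3 or 4). The number of macrophage genes called lower was 3 without KO-labelled replicate 3, 8 without KO-labelled replicate 1, 11 without KO-labelled replicate 2 or WT replicate 4 and 24 without KO-labelled replicate 4.

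B cell genes were highest in 1 library, KO-labelled replicate 2. Of 18 tested, Cd22 was higher and none was lower, where 9.95% and 9.21% of all tested genes were. The median was 0.56. Cd22, a lectin that restrains the B cell receptor, averaged 45.5 ± 30.6 CPM in KO-labelled cells and 18 ± 2.9 CPM in WT cells (adjusted p = 0.0399, but 0.0523 to 0.106 without KO-labelled replicates 3 or 4 or WT replicates 1, 3 or 4). The plasma cell gene Igj, the joining chain of secreted antibodies, stood at 40, 385, 95.1 and 95.7 CPM in KO-labelled cells, against 32.8, 35.5, 41 and 49.8 CPM in WT cells (adjusted p = 0.0467, but 0.0597 to 0.111 without KO-labelled replicates 2, 3 or 4 or WT replicates 1, 2, 3 or 4). Cd8a, which marks cytotoxic T cells and some dendritic cells, was 31.5 CPM in the same KO-labelled replicate 2, against 8.01 to 8.77 CPM in the other KO-labelled and 5.39 to 7.59 CPM in WT libraries (adjusted p = 0.103).

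The natural killer and cytotoxic genes moved in both directions. Of 8 tested, 4 fold changes lay above 0 and 4 below, with a median of -0.13. Klrd1 and Klrb1c, receptor genes of natural killer cells, were lower. Klrd1 (CD94) stood at 7.39, 7.81, 7.86 and 6.24 CPM in KO-labelled cells, against 27.6, 19.5, 23.9 and 13.9 CPM in WT cells (2.89-fold lower, adjusted p = 0.00263). Klrb1c (NK1.1), which natural killer and natural killer T cells carry, stood at 5.47, 10.2, 10.6 and 13.3 CPM in KO-labelled cells, against 29, 36.9, 30 and 16 CPM in WT cells (2.82-fold lower, adjusted p = 0.0131). Zbtb16, which encodes PLZF, the transcription factor of natural killer T cells, was named after its values were seen and averaged 0.486 ± 0.102 CPM in KO-labelled cells and 2.13 ± 1.17 CPM in WT cells (4.35-fold lower, adjusted p = 0.0116). Ncr1, a receptor of natural killer cells that natural killer T cells mostly lack, averaged 1.15 ± 1.28 CPM in KO-labelled cells and 0.882 ± 0.292 CPM in WT cells and was not called (adjusted p = 0.677), with KO-labelled replicate 2 at 3.04 CPM. Of the 8 tested genes of that list 3 were lower and 1 was higher, where 9.21% and 9.95% of all tested genes were. The last lower one was Prf1, the pore-forming perforin, at 33.5 ± 4.06 CPM in KO-labelled cells and 52.4 ± 10.5 CPM in WT cells (1.56-fold lower, adjusted p = 0.0244, but 0.0507 to 0.0843 without KO-labelled replicates 2, 3 or 4 or WT replicates 3 or 4). Gzmb, the cytotoxic protease granzyme B, was higher at 8.8 ± 0.897 CPM in KO-labelled cells and 3.77 ± 1.33 CPM in WT cells (2.35-fold, adjusted p = 0.0109).

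A further set of genes was taken from the stimulated libraries alone. It holds the 339 tested genes that were at least 4-fold higher in WT stimulated cells, at 1 CPM or more, than in each of the 5 other stimulated groups, libraries with few macrophage transcripts. The rule was chosen after seeing the data and uses no unstimulated library, but it takes genes that were higher in WT than in KO-labelled stimulated cells. Unstimulated and stimulated WT libraries of 1 run of numbers deviated together (r = 0.37 to 0.56), so lower KO-labelled values of the set in unstimulated cells are in part given by the rule. The sources used here do not say if stimulated and unstimulated libraries of 1 run of numbers come from the same animals. It takes in all 14 tested red pulp macrophage genes, and also genes of resting T cells such as Ccr9 that stimulation lowers. In unstimulated cells 150 of the 339 (44.2%) were lower in KO-labelled libraries and 2 were higher, with a median of -0.81, which describes the set and is no independent result. In 117 tested genes of the T cell lists that are neither in that set nor markers of other cells, 53 (45.3%) were higher and 4 lower. These lists were chosen with earlier results of these data known, so that share is no independent result either. Outside the set and the other-cell markers, 1184 genes were higher and 949 lower of 11559, so most of the 2294 called genes lay in neither. Of the 53 higher T cell genes, 49 were still called without both WT replicate 1 and KO-labelled replicate 2, 52 with the length offset, and 41 to 53 when single libraries were left out. Of the 150 lower genes of the set, 108 were still called without both WT replicate 1 and KO-labelled replicate 2, 52 were still called without KO-labelled replicate 3, 92 without KO-labelled replicate 1 and 96 without WT replicate 3. With the macrophage sum as a covariate 32 of the 53 and 12 of the 150 were called. The macrophage sums of the groups do not overlap, so the covariate and the genotype cannot be told apart in that fit. Foxp3, Ikzf2, Nrp1, Ctla4, Il21, Pdcd1, Cxcr5, Bcl6, Lag3, Tigit, Il10, Nr4a2 and Nr4a3 were among the genes still called in that fit. For the same reason, calls kept or lost there do not tell genotype from macrophage content.

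The 12 largest rises, among called genes without overlap whose higher group averaged 10 CPM or more, held none of that set, and the 12 largest falls held 8 of it. Of the rises, Fam84a stood at 7.3, 12.1, 9.63 and 12.7 CPM in KO-labelled cells, against 0.268, 0.397, 0.243 and 1.26 CPM in WT cells (17.9-fold, adjusted p = 0.00135). Cacna1d, the pore of an L-type calcium channel, averaged 15.5 ± 3.34 CPM in KO-labelled cells and 1.57 ± 1.16 CPM in WT cells (9.5-fold), and Spp1, the secreted phosphoprotein osteopontin, 16.4 ± 9.44 CPM in KO-labelled cells and 1.71 ± 1.05 CPM in WT cells (9.4-fold). Angptl2, a secreted angiopoietin-like protein, averaged 115 ± 28.8 CPM in KO-labelled cells and 14.8 ± 6.06 CPM in WT cells (7.69-fold), and Fam160a1 15.4 ± 3.15 CPM in KO-labelled cells and 2.27 ± 0.201 CPM in WT cells (6.72-fold). Zbtb32, a transcriptional repressor of lymphocyte responses, averaged 12.6 ± 2.29 CPM in KO-labelled cells and 1.88 ± 0.543 CPM in WT cells (6.65-fold), and Eea1, a tether of early endosomes, 77.1 ± 8.46 CPM in KO-labelled cells and 11.5 ± 6.97 CPM in WT cells (6.64-fold). Il1r2, a decoy receptor for interleukin-1, averaged 26.1 ± 12.8 CPM in KO-labelled cells and 3.98 ± 1.89 CPM in WT cells (6.51-fold). The adjusted p-values of these 8 genes were 0.000145 to 0.00524. Sostdc1, Il21 and Il10, also among the 12, are described above.

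Of the falls, Adamdec1, a metalloprotease gene of macrophages and dendritic cells, stood at 0, 0, 0.0477 and 0.0504 CPM in KO-labelled cells, against 40.2, 107, 55.1 and 67.3 CPM in WT cells. That is 2 counts over the KO-labelled group against 4834 over the WT group, a WT level 2845-fold higher with a 95% counting interval of 787 to 23502. Acvrl1, a receptor for bone morphogenetic proteins, stood at 6.32, 10.4, 7.53 and 12.4 CPM in KO-labelled cells, against 85.3, 71.8, 69.7 and 82.3 CPM in WT cells (8.44-fold lower, adjusted p = 0.000145). Ptgis (prostacyclin synthase) averaged 3.41 ± 1.07 CPM in KO-labelled cells and 20.9 ± 2.58 CPM in WT cells, Qpct (glutaminyl cyclase) 2.18 ± 0.434 CPM in KO-labelled cells and 10.5 ± 2.58 CPM in WT cells, Epas1 (the hypoxia factor HIF-2alpha) 2.91 ± 0.706 CPM in KO-labelled cells and 11.7 ± 2.73 CPM in WT cells and the tetraspanin gene Tspan15 4.57 ± 2.02 CPM in KO-labelled cells and 17.7 ± 1.38 CPM in WT cells. With Cd209b and Cd163, the receptor for haemoglobin bound to haptoglobin, these are the 8 genes of the set. Cd163 averaged 16.7 ± 8.52 CPM in KO-labelled cells and 72.9 ± 45 CPM in WT cells (4.38-fold lower, adjusted p = 0.0181, but 0.0504 to 0.056 without KO-labelled replicates 1 or 3). Outside the set were Wdfy1, an endosomal adaptor, Rnf144a, a ubiquitin ligase, Slc7a2, a transporter of cationic amino acids, and the tetraspanin gene Tspan9. Wdfy1 stood at 5.34, 6.55, 5.72 and 5.29 CPM in KO-labelled cells, against 26.7, 25.9, 26.5 and 27.8 CPM in WT cells, with little spread within either group (4.67-fold lower, adjusted p = 2.6e-05). Rnf144a averaged 13 ± 3.31 CPM in KO-labelled cells and 52.7 ± 4.74 CPM in WT cells (4.05-fold), Slc7a2 3.27 ± 1.6 CPM in KO-labelled cells and 11.4 ± 3.71 CPM in WT cells (3.49-fold) and Tspan9 8.58 ± 2.09 CPM in KO-labelled cells and 27.7 ± 7.01 CPM in WT cells (3.23-fold).

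Whether the genotype difference in unstimulated cells differed from that after stimulation was tested in 1 fit of all 32 libraries, in which 36.1% of 12332 genes differed between unstimulated genotypes. The 18 genes examined were chosen with earlier results of these data known. In the fit of 8 libraries 14 of the 17 tested were called higher and 2 lower. A difference that is larger in unstimulated cells is therefore in part given by the choice. For 6 of these 18 genes the difference in unstimulated cells, minus that in stimulated cells, passed the threshold adjusted over all genes. That share is near the background, since 33.7% of all genes passed, while 6.5% passed against XCT790 and 3.87% against CompA. Nr4a2, in this scaling, averaged 13.2 ± 3.57 CPM in KO-labelled cells and 12.7 ± 5.2 CPM in WT cells after stimulation (adjusted p = 0.892), and the difference of log2 fold changes was 2.02 (SE 0.42, adjusted p = 0.00103). Nr4a3 averaged 66.2 ± 12 CPM in KO-labelled cells and 61 ± 17 CPM in WT cells after stimulation, with a difference of 1.00 (SE 0.25, adjusted p = 0.00455). Lag3 averaged 203 ± 50.1 CPM in KO-labelled cells and 132 ± 17.8 CPM in WT cells and Pdcd1 132 ± 43.9 CPM in KO-labelled cells and 107 ± 27.3 CPM in WT cells, with differences of 1.67 and 1.55 (adjusted p = 0.000711 and 0.00355). So the higher KO-labelled levels of these 4 genes were larger in resting than in stimulated cells. They were also larger than with XCT790 (adjusted p = 0.00324, 0.0059, 0.00146 and 0.00467 in that order) and with CompA (0.0109, 0.00468, 0.000139 and 0.0243). Nrp1 differed by 1.06 from stimulated cells (adjusted p = 0.0183) but not detectably from the XCT790 and CompA groups (0.537 and 0.252). Cd209b, with log2 fold changes of -2.86 in resting and -6.76 in stimulated cells, differed by 3.90 (adjusted p = 0.00545). Macrophage genes, in this scaling, summed on average to 197 CPM in KO-labelled and 2222 CPM in WT stimulated libraries. The unstimulated means were 3735 CPM in KO-labelled and 7635 CPM in WT libraries. With CompA and XCT790 they were 248 and 247 CPM in KO-labelled and 160 and 156 CPM in WT libraries. The stimulated genotypes thus differed in macrophage content too, and the part of these genes in the differences was not tested.

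Nr4a1 itself averaged 332 ± 128 CPM in KO-labelled cells and 166 ± 32.7 CPM in WT cells after stimulation (adjusted p = 0.00148), and its genotype difference in resting minus stimulated cells was not called (adjusted p = 0.144). For Foxp3, Ikzf2, Ctla4, Tigit, Il10, Il21 and Ifng a difference between resting and stimulated cells was not called. Il10 had log2 fold changes of 2.57 (SE 0.35) in resting, 3.01 (0.36) in stimulated, 2.94 (0.37) in XCT790 and 2.79 (0.36) in CompA cells. Ctla4 had 1.02 (0.18), 1.10 (0.18), 1.07 (0.18) and 1.37 (0.19) in the same order. Both genes were called higher in KO-labelled cells in all 4 conditions. With the replicate block the difference from stimulated cells was called for Tigit and Il21 (0.84 and 1.15, adjusted p = 0.00978 and 0.018), for Tigit also without KO-labelled replicate 1 (0.98, adjusted p = 0.0495), and for Il21 without WT replicate 4 (1.67, adjusted p = 0.00743). The block also gave the call for Sostdc1 and Cacna1d (1.63 and 1.67, adjusted p = 0.0439 and 0.0153), as did leaving out WT replicate 4 (2.32 and 2.22, adjusted p = 0.014 and 0.0103). The block thus called 10 of the 18 genes and 45.3% of all genes, and 9 of the 18 were called without WT replicate 4.

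**Figure D5:**
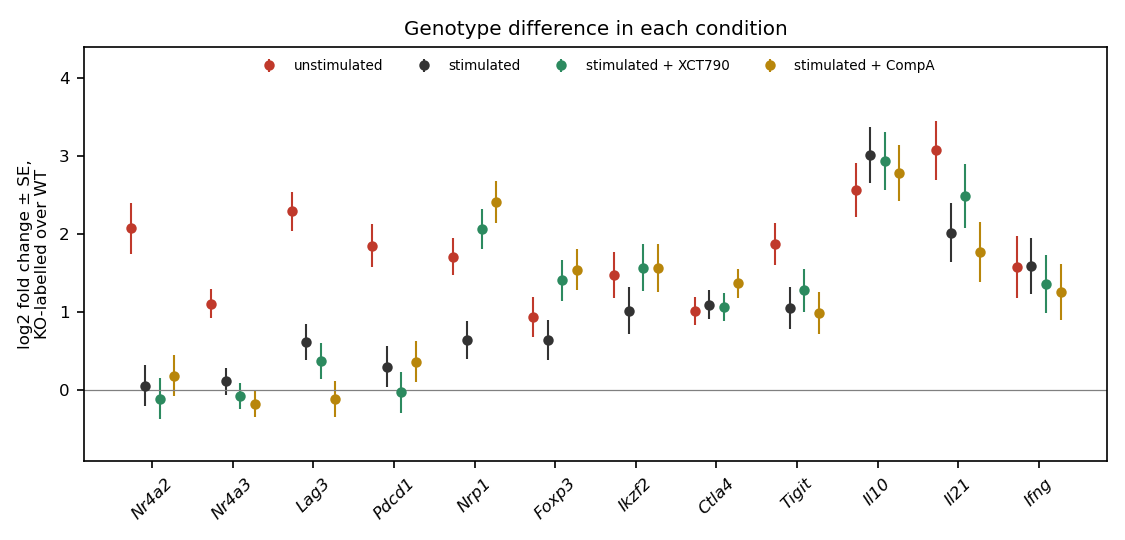
Log2 fold change, KO-labelled over WT, with its SE for 12 genes in unstimulated cells and in 3 stimulated conditions, from the fit of all 32 libraries. For Nr4a2, Nr4a3, Lag3 and Pdcd1 the difference was called larger in unstimulated cells than in each stimulated condition. Il10 lay between 2.57 and 3.01 in all 4 conditions.

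Across all genes, 259 of the 1191 genes higher in unstimulated KO-labelled cells were also called higher after stimulation, 355 with XCT790 and 315 with CompA, while 65, 5 and 7 of them were called lower. Of all genes tested 7.31, 7.4 and 5.82% were called higher in these 3 comparisons. Of the 1103 lower genes, 438 were also lower after stimulation, 56 with XCT790 and 54 with CompA, while 10, 24 and 15 of them were called higher. Of all genes tested 17.9, 2.11 and 1.88% were called lower, and 25.2, 9.51 and 7.7% in either direction. These comparisons share no library with the unstimulated one. Libraries of 1 run of numbers deviated together among KO-labelled libraries and between unstimulated and stimulated WT libraries, while r was -0.22 to 0.22 between unstimulated WT libraries and those with XCT790 or CompA.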

How the data were processed

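RNA of 32 libraries was sequenced, and the 8 unstimulated ones carry the comparison. The authors deposited whole-number counts per gene for each library. Per the submitters' processing notes the tools were Trimmomatic 0.36, HISAT2 2.1.0, SAMtools and HTSeq 0.9.1 with the mm10 genome, and R 3.4.4 with DESeq2 1.18.1. The counting strand and annotation release are not given in the sources used here, so overlapping and antisense genes cannot be told apart. The 5 summary lines per file were left out of library sizes. Groups come from the labels. Members and lists were chosen with earlier results of these data known.

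Counts were fitted with edgeR 4.0.16 in R 4.3.3 (filterByExpr, TMM, quasi-likelihood F test, Benjamini-Hochberg adjustment over 11971 genes, threshold 0.05). Differences between conditions came from 1 fit of all 32 libraries over 12332 genes. Sums over marker lists were compared by an exact permutation test. Named were the Nr4a genes and Esrra, the 12 largest rises and falls without overlap whose higher group averaged 10 CPM or more, up to 6 members of each list by p-value, genes that define a list, and the genes of the difference test. Some genes that this rule names are not reported here. Other names are said to have been chosen after their values were seen. Alternatives were other scalings, no filter, DESeq2 1.42.0, marker sums as covariates, limma 3.58.1 with a replicate block, and leaving out each library. Leaving out WT replicate 1 with KO-labelled replicate 2, and a transcript length offset, were added after seeing the data. The steps were tested on simulated data. Gene positions and promoters come from RefSeq (GRCm38.p6). Transcript lengths are those of the longest GENCODE transcript of each gene. Gene counts per library were 16938473 to 21596749, and counting intervals and floors cover counting error only. No pair of libraries within a group agreed within sampling noise (lowest chi-square per gene 14.6).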

Additional observations from a re-analysis of the deposited data

Results flagged for a closer look

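In a group of 4 libraries a value was picked out where its gap to the nearest other library took up more of the group's range than Dixon's 95% critical value. That was so in 21 of 210 groups of values, and chance gives about 1 in 20.

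KO-labelled replicate 2 was the high library for B cell, CD8 and basophil markers. The B cell sum was 1232 CPM there and 320.2 CPM in the next KO-labelled library. Igj stood at 385 and 95.7 CPM, and Cd8a at 31.5 and 8.77 CPM. The CD8 T cell sum was 82.4 and 35.3 CPM, the basophil and mast cell sum 6.34 and 1.19 CPM, and Ncr1 3.04 and 0.810 CPM. The same library was high for Rnf144a (17.96 and 11.7 CPM), Mx1 (5.33 and 3.81 CPM) and Nnt (48.1 and 28.1 CPM).

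WT replicate 4 was picked out as the high WT library for some genes that were higher in KO-labelled cells. It was not the highest WT library for others, such as Foxp3, Nrp1 and Il10. Il21 stood at 10.0 CPM there and 3.15 CPM in the next WT library, Pdcd1 at 44.2 and 25.6 CPM, and Tox2 at 10.98 and 4.88 CPM. Fam84a stood at 1.26 and 0.397 CPM, and Angptl2 at 23.9 and 12.5 CPM. WT replicate 1 was high for the erythroid sum (341 and 91.7 CPM) and the basophil and mast cell sum (2.54 and 0.972 CPM). WT replicate 3 was high for Trat1 (99.5 and 83.4 CPM) and low for C1qa (313 and 424 CPM). KO-labelled replicate 4 was high for the marginal zone macrophage sum (92.2 and 45.2 CPM), KO-labelled replicate 1 low for Zbtb32 (9.21 and 13.5 CPM), and KO-labelled replicate 3 low for Tspan9 (5.48 and 9.37 CPM).

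The genotype difference in unstimulated cells, minus that in stimulated cells, was called for 6 of 18 genes on the log2 scale (edgeR, adjusted over all genes). It was 2.02 for Nr4a2, 1.00 for Nr4a3, 1.67 for Lag3, 1.55 for Pdcd1, 1.06 for Nrp1 and 3.90 for Cd209b. These calls were kept under the 10 alternatives run for them. The 18 genes were chosen with earlier results of these data known, and 33.7% of all genes passed the same test.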

How the results depend on the processing

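No gene called in the reported fit and in an alternative changed direction between them. Of 84 called genes named in the text, 65 kept their call when each library was left out in turn. Counts of genes called higher were 1883 with DESeq2, 1787 with the replicate block, 388 with the macrophage covariate, 337 with macrophage and B cell covariates, and 489 to 1866 without single libraries. Counts called lower were 607 with library totals, 1916 with T cell scaling, 1735 with DESeq2, 2911 in the fit of 32 libraries, 2975 with the replicate block, 63 and 49 with 1 or both covariates, and 198 to 1798 without single libraries. Scaling by totals moved the median of all genes to 0.13. With 1 or both covariates regulatory T cell genes had medians of 1.28 in each fit (6 called with both), follicular helper genes 1.82 and 1.74, inhibitory genes 1.19 and 1.24. With 1 or both, 4 and 5 cytokine genes and 0 and 5 mitosis genes were called higher, 1 and 0 oxidative phosphorylation genes lower, and 0 and 0 ribosomal protein and macrophage genes lower, with macrophage medians of -0.0574 and -0.0769. Emr1, a member of the list that makes up the macrophage covariate, then turned to 0.0881 and 0.0868 (adjusted p = 0.767 and 0.793, edgeR). The cytokine median was 0.68 in the fit of 32 libraries, 0.47 with the replicate block and 1.37 with the length offset. Oxidative phosphorylation genes called lower were 10 with totals, 53 with T cell scaling, 47 with DESeq2, 69 with 32 libraries, 67 with the replicate block, 13 without the 2 libraries that stood apart, and 1 to 59 without single libraries. The length offset moved their median to -0.15 and that of ribosomal proteins to -0.47. Macrophage genes called lower were 28 with the replicate block and 3 to 24 without single libraries, mitosis genes higher 2 to 20 and ribosomal protein genes lower 15 to 73. The cause of these moves was not tested. In the covariate fits the macrophage sum and the genotype cannot be told apart, and the macrophage genes themselves make up that covariate. The replicate block is the run of library numbers, whose libraries deviated together (r = 0.19 to 0.44 between unstimulated and other KO-labelled libraries, 0.37 to 0.56 between unstimulated and stimulated WT libraries, -0.22 to 0.22 with the other WT groups). The labels give the genotypes no number in common. With 4 libraries a group, counts of calls depend on each library.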

Other observations

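BC018473, one of the genes of the difference test, passed the filter on low counts in the fit of 32 libraries (adjusted p = 0.00034 in unstimulated cells, edgeR) but not in that of 8. It stood at 36.7, 0.254, 53.3 and 76.3 CPM in KO-labelled libraries, against 0.0669, 0.0567, 0.0607 and 0 CPM in WT libraries. That is 3464 counts over the KO-labelled group and 3 over the WT group, a ratio of 981 with a 95% counting interval of 335 to 4758. KO-labelled replicate 2 lay near the WT libraries, unlike the other KO-labelled libraries.

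Nnt, which encodes a mitochondrial transhydrogenase that C57BL/6J mice are known to carry in a deleted form, was chosen after its values were seen. It stood at 26.3, 48.1, 26.4 and 28.1 CPM in KO-labelled cells, against 56.8, 64.4, 61.3 and 59 CPM in WT cells (1.87-fold lower, adjusted p = 0.0152, and 0.0545 without KO-labelled replicate 3, edgeR). Whether the groups differ in substrain was not tested. Within 5 Mb of Nr4a1, 15 of 99 tested genes were higher and 13 lower, 28.3% against 19.2% of all placed genes.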
